A study of Mus musculus with 4 samples.

Results

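The mitochondrial respiratory chain and the ATP synthase are built from many small subunits, most of them encoded in the nucleus. The nuclear-encoded subunits here were 89 genes picked by symbol in the deposited FPKM table, of 37653 genes there and 55335 in the count table. Their symbols carry subunit names of complexes I to V. These are Nduf with a, b, c, s or v and a number, Sdh, Uqcr and Cyc1, Cox4 to Cox8, and Atp5. Complex I contributed 40 genes, complex II 4, complex III 9, complex IV 19 and complex V 17, and 7 names containing -ps, such as Ndufb1-ps, were left out by the rule. RNA was sequenced from mouse spermatogonial stem cells, the germline stem cells that sustain sperm production, of strain C57/BL6*DBA2 and taken at postnatal day 10, which were cultured with passaging, collected on a cell sorter and processed as poly-A RNA. The 2 groups were wild type (WT, 2 libraries, WT1 and WT2) and Tex11PM/Y (2 libraries). Tex11 is an X-linked gene required for meiosis, and the labels do not say what the PM allele changes, nor whether the libraries came from separate cultures or mice. All p-values therefore measure only the spread between these libraries. Both Tex11PM/Y columns carry the same header name in the deposited tables, so they are called library A and library B in column order.

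Electrons enter the chain at complex I (NADH dehydrogenase) and complex II (succinate dehydrogenase), pass through complex III (cytochrome bc1) and cytochrome c to complex IV (cytochrome c oxidase), and the proton gradient they build drives complex V, the ATP synthase. Core subunits carry the redox centres or the catalytic sites, and accessory subunits surround them. Several complex IV subunits have tissue forms, paralogs used in muscle, lung or testis in place of the common form, and spermatogenic cells are known for switching from glycolysis towards oxidative phosphorylation as they differentiate.

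Library totals ran from 19047148 to 19804951 assigned reads, and read counts scaled to 1000000 per library (CPM) are given at effective library sizes. Tex11 itself stood at 66.4 and 126 CPM in WT1 and WT2 and at 22.7 and 9.32 CPM in libraries A and B. The 11 germ cell markers summed to 3316 and 3677 CPM in the WT libraries and 4172 and 3885 in libraries A and B, while Sertoli, Leydig and endothelial markers summed to at most 27.6 CPM in each library. The germ cell markers did not vary together: 3 were highest in WT1, 5 in library A and 3 in library B. In the fit, 7 of them were higher in Tex11PM/Y and 4 lower. The 16 fibroblast markers differed widely between libraries: they summed to 17163 CPM in WT1, 4954 in WT2, 561 in library A and 6196 in library B. Among them S100a4 had only 7, 6, 0 and 11 counts in that order, but 71.1, 124, 5.61 and 108 TPM. The 9 macrophage markers summed to 644, 502, 27.1 and 1202 CPM in the same order, and the 6 myoid markers to 195, 34.6, 7.50 and 32.0 CPM. The 10 spermatocyte and spermatid markers summed to 83.2, 136, 316 and 125 CPM, most of it Sycp1. The labels give no batch or date, so batch and group cannot be told apart.

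The subunit genes were abundant in every library. Their summed TPM (a level per transcript length, scaled to 1000000 in each library) was 22940 in WT1, 22003 in WT2, 17140 in library A and 23515 in library B, that is 2.29%, 2.20%, 1.71% and 2.35% of each library's total. Library A was below the other 3, and library B was above both WT libraries, so the groups overlapped. The place of library B depended on the scale. In deposited FPKM the sums were 9249, 7923, 5580 and 8886 in the same order, with library B between the WT libraries. With counts per kilobase scaled to 1000000, library B was again above both (22271, against 21926 and 20555). Of the 89 genes, 84 passed the filter on low counts and were tested. The remaining 5 had under 10 counts in every library: Ndufa11b, Ndufb4c, Ndufs6b and Cox6c2, which are extra copies of subunit genes, and Cox8b, a muscle form of the complex IV subunit 8.

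Levels within a complex spanned a wide range even among common subunits. In complex I the highest mean TPM over the 4 libraries was that of Ndufa7, an accessory subunit (577), and without the tissue form Ndufa4l2 (19.8) the lowest was Ndufc1 (44.0). Complex II was the most even, from 112 for Sdhc, a membrane anchor, to 236 for Sdha, the flavoprotein that oxidises succinate. Complex III ran from 109 for the core protein Uqcrc2 to 487 for the hinge protein Uqcrh. Cox4i1, the regulatory subunit 4 of complex IV, was the highest of all members at 1810, and Atp5b, the catalytic beta subunit of the ATP synthase, followed at 1453. The complex IV tissue forms were low for that complex, from Cox6a2 at 1.31 TPM up to Cox7b2 at 69.4, although Cox7b2 was above the lowest common form, Cox7b, at 59.8.

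**Figure D1:**
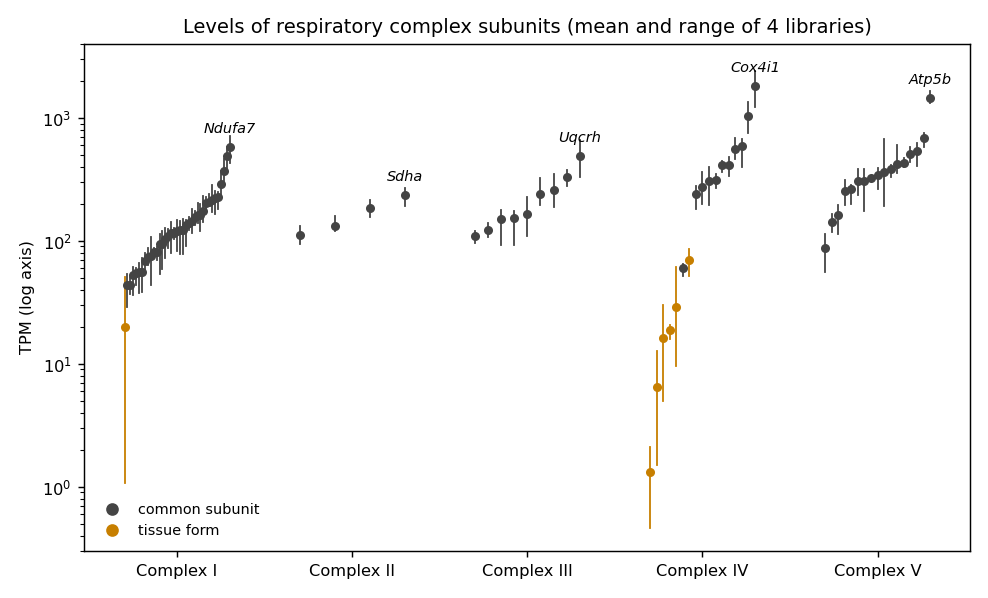
Mean TPM (points, log axis) and range over the 4 libraries (lines) of each tested subunit gene, ordered by mean within complexes I to V; tissue forms are in orange. Cox4i1 (1810) and Atp5b (1453) top the family, and the tissue forms of complex IV lie between 1.31 and 69.4.

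The first comparison asked whether the subunit transcripts differ between Tex11PM/Y and WT cells. No member passed the test: 0 of 84 had an edgeR quasi-likelihood adjusted p under 0.05, against 0% of the 17262 genes tested, and the smallest adjusted p of a member was 0.884. At an unadjusted edgeR p under 0.05 there were 4 members lower in Tex11PM/Y and 0 higher, against 1.71% and 0.991% of all genes. These 4 were Cox4i2, Cox8c, Cox7a2l and Atp5g2. DESeq2 on the same counts also called 0 members, with 5 at an unadjusted p under 0.05.

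Most members were fitted slightly lower in Tex11PM/Y: 74 of 84, against 49% of all genes, with 10 fitted higher, against 51%. Their median log2 fold change (Tex11PM/Y over WT) was -0.31, beside 0.01 over all genes, with a median standard error of 0.37. The CPM of the 2 groups did not overlap for 18 members lower in Tex11PM/Y (21.4% of those tested, against 16.3% of all genes) and for 2 members higher (2.38%, against 16.1%), namely Ndufs1 and Sdha. With limma on log2(TPM + 1), a scale on which the median of all genes moved to 0.15, 27 of 88 members were fitted higher and their median was -0.13.

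The members varied with the library within each group. Of the 84 members, 73 had their lowest CPM in library A, against 34.4% of all genes, and 56 had their highest in WT1, against 34.2%. Against the mean of the other 3 libraries, the median member was 0.66 lower on the log2 scale in library A and 0.47 higher in WT1, while WT2 (0.02) and library B (0.16) lay close to that mean. Library B exceeded WT2 for 62 of 84 members, against 49.2% of all genes. The median difference was 0.13 on the log2 scale, against -0.007 over all genes. On deposited TPM, 60 of 84 members were lowest in library A, against 24.7% of all genes. Without library A the members' median log2 fold change was -0.06, with 34 of 84 fitted higher and the median of all genes at -0.04. Without library B it was -0.72, with 4 fitted higher; 518 genes were then called (2.76%, of which 444, or 2.37% of those tested, were lower), and 1 member, Ndufa4l2, was among them. In both of those fits the lone Tex11PM/Y library is assumed to vary as the WT libraries do. The fibroblast marker sum was also lowest in library A (561 CPM) and highest in WT1 (17163 CPM). Its part in the members' levels was not tested, and in bulk RNA fewer cells of a type cannot be told apart from less RNA per cell.

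**Figure D2:**
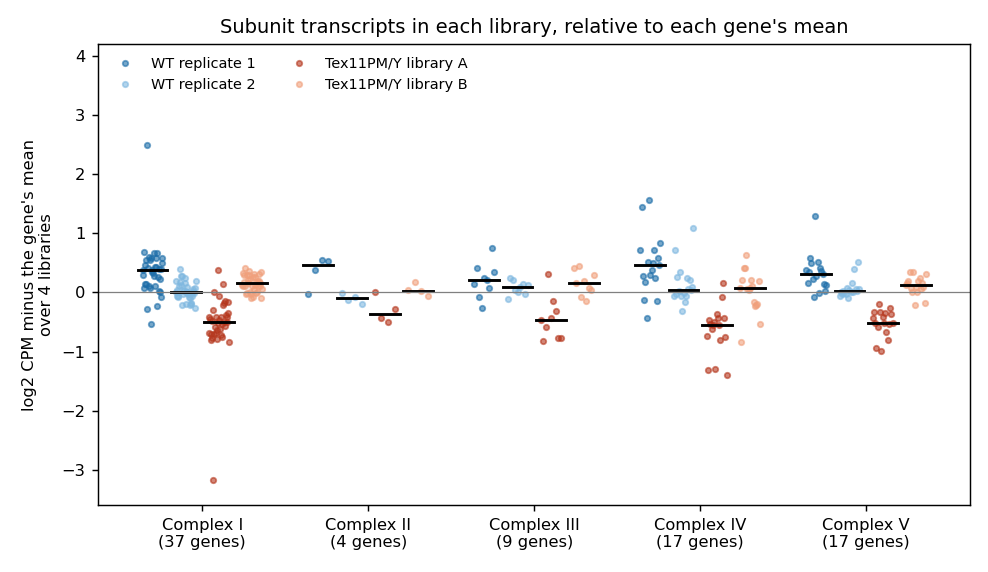
Log2 CPM of each tested subunit gene minus its own mean over the 4 libraries, by complex; each point is a gene, colours are libraries and black bars are medians. In all 5 complexes the median is lowest in library A, and the points of library B lie above those of library A for most genes.

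Complex I had 37 tested genes, with a median log2 fold change of -0.32 and 5 fitted higher. The 7 core subunits, which hold the flavin and iron-sulphur clusters, had a median of -0.22, and the 29 accessory subunits -0.34. Ndufs1, the largest iron-sulphur core subunit, had 89.5 CPM in WT1, 98.1 in WT2, 116 in library A and 119 in library B. Both Tex11PM/Y libraries were above both WT libraries, by a log2 fold change of 0.32 (SE 0.28, edgeR adjusted p = 0.884). The accessory subunit Ndufa7 had 208, 118, 90.8 and 158 CPM in the same order, and its groups overlapped (log2 fold change -0.39, SE 0.40), with a positive value (0.06) when WT1 was left out. Ndufv1, the NADH-binding core subunit, had 203, 226, 169 and 273 CPM, lowest in library A and highest in library B.

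The largest difference in complex I was that of Ndufa4l2 (chr10:127514967-127517154, mm10), a paralog of Ndufa4 known as a hypoxia-induced gene of vascular and stromal cells. Its CPM was 25.6 in WT1, 5.92 in WT2, 0.40 in library A and 5.48 in library B. WT1 was far above the other 3 libraries, library A far below them, and WT2 and library B were nearly equal. The log2 fold change was -2.42 (SE 1.24, edgeR adjusted p = 0.884). This order was that of the fibroblast markers in WT1 and library A, and the part of such cells was not tested. Ndufa4 itself, a small subunit since assigned by structural work to complex IV, had 62.8, 64.4, 46.4 and 55.7 CPM (log2 fold change -0.32, SE 0.31).

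Complex II, which also belongs to the citric acid cycle, varied least of the 5 complexes in summed TPM over the libraries. Sdha had 299, 304, 307 and 314 CPM in WT1, WT2, library A and library B, with the highest library only slightly above the lowest, and a log2 fold change of 0.04 (SE 0.28) that turned to -0.02 without library B. Its partner Sdhb, the iron-sulphur subunit, had 125, 87.7, 71.0 and 109 CPM, and its fitted value of -0.24 (SE 0.35) became positive without WT1 (0.02) or without library A (0.03). The membrane anchors Sdhc (195, 127, 95.2 and 136 CPM) and Sdhd (106, 63.8, 60.0 and 70.1 CPM) were highest in WT1 and lowest in library A, with overlapping groups and log2 fold changes of -0.48 (SE 0.34) and -0.38 (SE 0.35; 0.01 without WT1). The summed TPM of the 4 genes was 682, 644, 642 and 699, with library A lowest by a small margin.

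Complex III had 9 tested genes and a median of -0.22, which was 0.03 without library A. Uqcrb, a small accessory subunit that binds quinone, had 32.2 and 40.0 CPM in the WT libraries and 48.1 and 36.7 in libraries A and B, highest in library A (log2 fold change 0.23, SE 0.36). Uqcrh, an acidic accessory subunit near cytochrome c1, had 196, 113, 68.0 and 120 CPM, lowest in library A (log2 fold change -0.72, SE 0.41). The catalytic subunits Cyc1 (cytochrome c1; 180, 150, 118 and 217 CPM) and Uqcrfs1 (the Rieske protein; 78.4, 82.0, 59.8 and 78.2 CPM) had a median log2 fold change of -0.10. Uqcrc2 had 94.6 and 86.9 CPM in the WT libraries and 73.8 and 73.6 in libraries A and B, without overlap (log2 fold change -0.30, SE 0.29).

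**Figure D3:**
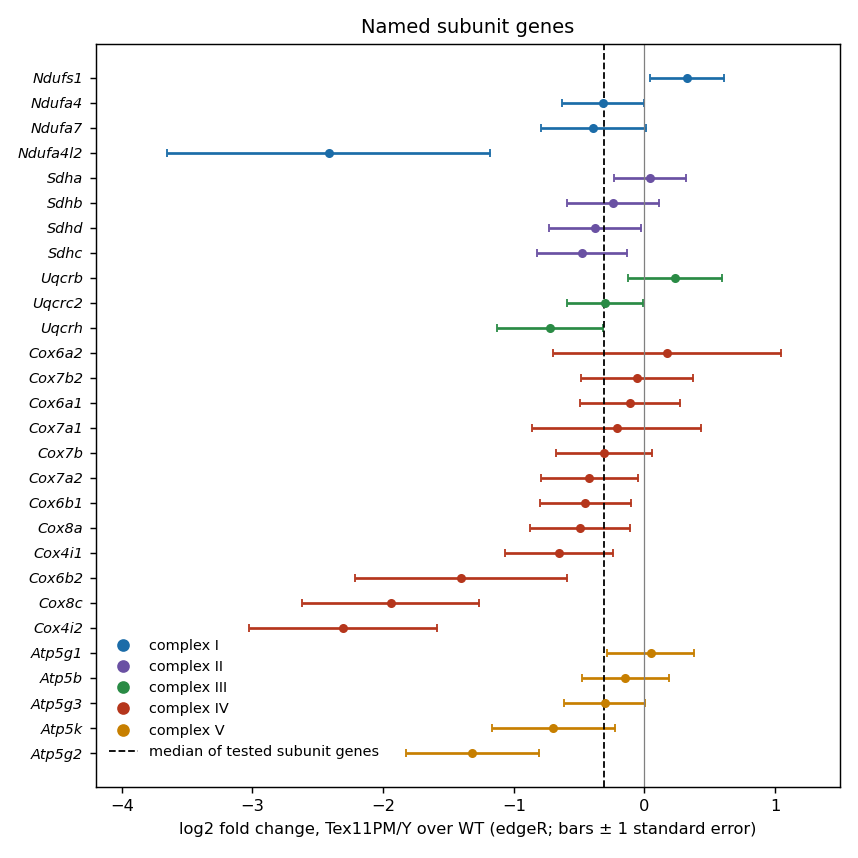
Log2 fold change (Tex11PM/Y over WT, edgeR on counts, 2 libraries per group) of the named subunit genes with 1 standard error to each side; colours mark the complex and the dashed line the median of all 84 tested members (-0.31). Ndufs1 reaches 0.32, and Ndufa4l2, Cox4i2 and Cox8c lie farthest to the left.

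Complex IV had 17 tested genes and a median of -0.42, with Cox6a2 alone fitted higher; in that case the counts were only 5, 11, 5 and 14, and the sign turned without WT1 (-0.24) or without library B (-0.77). The 10 common forms had a median of -0.37. Cox4i1 (chr8:120668222-120674207, mm10) had 972 CPM in WT1, 568 in WT2, 356 in library A and 623 in library B. WT2 and library B were close, and the log2 fold change was -0.65 (SE 0.41). All genes on chromosome 8 were higher in WT1 by a median of 0.40 on the log2 scale against the other 3 libraries, and the 3 members there (Cox4i1, Ndufa13 and Ndufb7) by 0.90. Cox7a2l, a factor joining complexes III and IV into supercomplexes, had 238 and 172 CPM in the WT libraries and 83.3 and 129 in libraries A and B, without overlap (log2 fold change -0.95, SE 0.34, edgeR adjusted p = 0.884); it and Ndufv1, Cyc1 and Uqcrfs1 were chosen after their values were seen.

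Tissue forms of complex IV were measurable alongside the common forms. Cox7b2, a testis paralog, was as abundant as its common form Cox7b: its share of the TPM of the pair was 46.4% in WT1, 56.2% in WT2, 57.1% in library A and 53.2% in library B. Cox7b2 itself had 15.6, 20.0, 19.4 and 14.8 CPM, and its log2 fold change of -0.06 (SE 0.43) turned to between 0.0019 and 0.14 under library-size scaling and on log FPKM or TPM. Cox7b had 33.7, 29.6, 26.8 and 24.3 CPM (log2 fold change -0.31, SE 0.36). The coding sequences of Cox7b and Cox7b2 were 65.4% identical, with no shared run longer than 11 bases, so few reads of the coding part could fit both.

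For the Cox7b and Cox6b pairs, the 160 bases upstream of the RefSeq start of each gene are shown (GRCm38.p6). They are Cox7b chrX:106015540-106015699 (plus strand), Cox7b2 chr5:71548206-71548365 (minus strand), Cox6b1 chr7:30626115-30626274 (minus strand) and Cox6b2 chr7:4753095-4753254 (minus strand). Both pairs were chosen after their shares were seen, and the pair of Cox8a and Cox8c is not shown. The part of these letters in the shares was not tested. Capitals mark the ETS motif, spelled CCGGAAG or its reverse complement, which these letters hold in Cox6b1 alone. By the gene coordinates deposited with the counts, Cox6b1 reaches to 30626151, so its capitals lie inside the gene there.
Cox7b: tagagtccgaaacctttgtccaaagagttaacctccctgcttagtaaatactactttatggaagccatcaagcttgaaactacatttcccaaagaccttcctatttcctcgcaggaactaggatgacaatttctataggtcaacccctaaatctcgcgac
Cox7b2: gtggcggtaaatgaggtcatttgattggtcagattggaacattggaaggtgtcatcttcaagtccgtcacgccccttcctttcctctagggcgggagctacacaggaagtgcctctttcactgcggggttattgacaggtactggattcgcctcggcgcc
Cox6b1: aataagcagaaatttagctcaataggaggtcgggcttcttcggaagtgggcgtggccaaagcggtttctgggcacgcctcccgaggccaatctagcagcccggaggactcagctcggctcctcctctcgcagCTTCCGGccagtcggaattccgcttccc
Cox6b2: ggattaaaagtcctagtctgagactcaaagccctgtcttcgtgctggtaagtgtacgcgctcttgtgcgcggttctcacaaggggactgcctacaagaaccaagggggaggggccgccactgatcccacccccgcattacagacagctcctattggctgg
The full windows of 300 bases held 5 CG dinucleotides for Cox7b, 10 for Cox7b2, 17 for Cox6b1 and 10 for Cox6b2.

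Cox6b2, the testis form of subunit 6b, had 16.6 CPM in WT1, 4.45 in WT2, 2.22 in library A and 5.73 in library B. It was highest in WT1 and lowest in library A, the groups overlapped, and the log2 fold change was -1.40 (SE 0.81). Its share of the Cox6b pair was 11.2%, 4.50%, 2.80% and 5.56%. Its common form Cox6b1 had 163, 111, 80.8 and 119 CPM (log2 fold change -0.45, SE 0.35).

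Cox8c (chr12:102899316-102900526, mm10), the testis form of subunit 8, had 5.11 and 6.07 CPM in the WT libraries and 1.01 and 1.89 in libraries A and B, from 91, 120, 20 and 38 counts. The groups did not overlap, with a log2 fold change of -1.94 (SE 0.68, edgeR adjusted p = 0.884), and its share of subunit 8 TPM was 3.04%, 4.46%, 1.24% and 1.38%. The 632 tested genes on chromosome 12 were higher in WT2 by a median of 0.57 against the other 3 libraries, with 59 of them lower. The part of this in the Cox8c values was not tested. The common form Cox8a had 198, 153, 85.1 and 164 CPM (log2 fold change -0.49, SE 0.38).

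Cox4i2 (chr2:152754173-152765037, mm10), the oxygen-responsive form of subunit 4 known from lung and smooth muscle, had 5.00 and 2.98 CPM in the WT libraries and 0.65 and 0.95 in libraries A and B, from 89, 59, 13 and 19 counts. Both Tex11PM/Y libraries were below both WT libraries, with a log2 fold change of -2.31 (SE 0.72, edgeR adjusted p = 0.884). Its share of subunit 4 TPM was 0.529% and 0.522% in WT and 0.123% and 0.133% in Tex11PM/Y. No exact permutation test of such shares can go below a two-sided p of 0.33 with 2 libraries per group. The myoid marker sums had the same order over the libraries (195, 34.6, 7.50 and 32.0 CPM), and the fibroblast sums were 17163, 4954, 561 and 6196 CPM. Outside library A most of the myoid sum was Acta2 (178, 24.3, 2.72 and 22.1 CPM). Not every myoid marker had this order: Myh11 had 2.70, 5.61, 2.97 and 5.93 CPM. The part of myoid cells and fibroblasts in the Cox4i2 values was not tested.

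The muscle forms were low in every library. Cox7a1 had 4.78, 3.24, 2.67 and 4.24 CPM, with overlapping groups and a log2 fold change of -0.21 (SE 0.64) that became positive without WT1 or without library A (0.08 in each). It held 6.93% and 6.95% of the TPM of the Cox7a pair in WT and 8.02% and 7.41% in Tex11PM/Y. Its common form Cox7a2 had 97.5, 66.5, 47.3 and 74.9 CPM (log2 fold change -0.42, SE 0.37). Cox6a2 held at most 0.184% of its pair in any library. Its common form Cox6a1 had 287, 260, 167 and 340 CPM, with a log2 fold change of -0.11 (SE 0.38) that was 0.31 without library A and 0.02 on log2(TPM + 1).

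**Figure D4:**
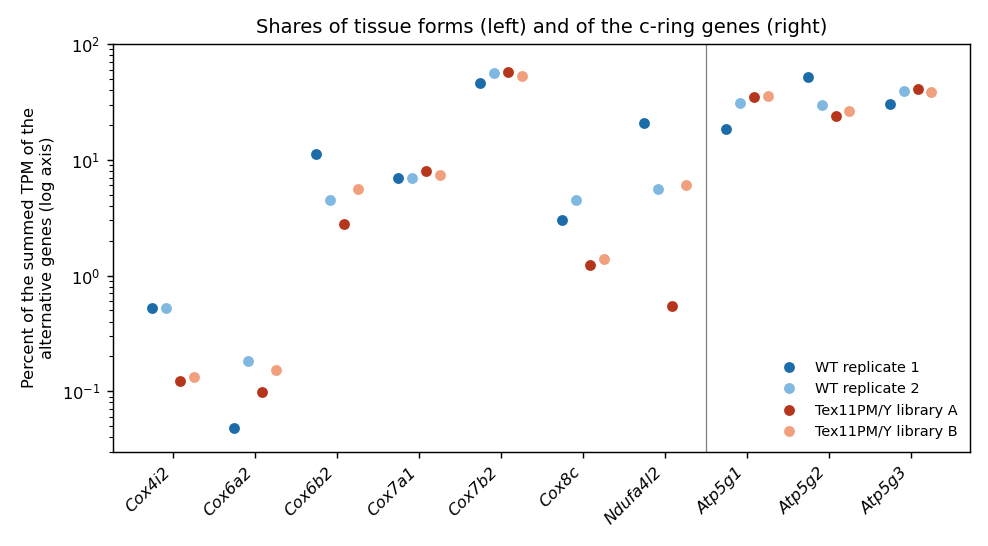
Share of each tissue form in the summed TPM of it and its common form (left; for Cox8c, of the 3 subunit 8 genes), and share of each of the 3 c-ring genes in their sum (right), in percent on a log axis, 1 point per library. Cox7b2 lies between 46.4% and 57.1%, the Cox4i2 shares of the groups lie apart (0.522% or more against 0.133% or less), and Atp5g2 is highest in WT1 (51.4%).

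Complex V had 17 tested genes, a median of -0.31 and 1 fitted higher, Atp5g1. In CPM all 17 were lowest in library A: the F1 head and stalk (5 genes), the peripheral stalk (4), the c-ring (3) and the other Fo subunits (5). On deposited TPM, 12 of the 17 were lowest in library A and the other 5 in WT1. Atp5b had 1378, 1244, 985 and 1385 CPM, and its log2 fold change of -0.15 (SE 0.33) turned positive without library A (0.08) and on log2(TPM + 1) (0.06). Atp5k, the small Fo subunit e and the lowest of the complex in TPM (87.5), had 20.3 and 20.9 CPM in the WT libraries and 9.01 and 16.4 in libraries A and B, without overlap (log2 fold change -0.70, SE 0.47).

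The c-ring is the proton-driven rotor of the synthase, and the 3 genes Atp5g1 (chr11:96068852-96075670), Atp5g2 (chr15:102662864-102671127) and Atp5g3 (chr2:73908447-73911326; all mm10) encode precursors with different targeting peptides but the same mature protein. The last 120 coding bases before the stop codon of each, from the GENCODE transcripts, show how far the genes differ behind that shared protein; capitals mark the 30 positions at which the 3 are not all alike, 26 of them at the third base of a codon.
Atp5g1: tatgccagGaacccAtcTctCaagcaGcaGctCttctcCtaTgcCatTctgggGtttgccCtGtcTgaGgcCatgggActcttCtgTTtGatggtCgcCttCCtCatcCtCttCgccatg
Atp5g2: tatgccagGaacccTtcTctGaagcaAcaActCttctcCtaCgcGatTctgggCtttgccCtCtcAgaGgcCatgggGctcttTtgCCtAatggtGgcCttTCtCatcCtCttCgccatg
Atp5g3: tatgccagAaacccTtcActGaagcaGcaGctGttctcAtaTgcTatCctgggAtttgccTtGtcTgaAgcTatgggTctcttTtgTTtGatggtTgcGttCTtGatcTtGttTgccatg
Over the whole coding sequence, pairs of these genes were 70.7% to 74.6% identical and shared no run longer than 20 bases, so few reads of the coding part could fit more than 1 of them.

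Atp5g2 had 227 CPM in WT1, 86.0 in WT2, 46.3 in library A and 79.2 in library B. The groups did not overlap, but WT1 was far above the other 3, and WT2 and library B were close (log2 fold change -1.32, SE 0.51, edgeR adjusted p = 0.884). Atp5g3 had 154, 130, 95.0 and 135 CPM (log2 fold change -0.30, SE 0.31). Atp5g1 had 102, 113, 85.7 and 136 CPM, and its fitted value of 0.05 (SE 0.33) was -0.04 without WT1 and -0.37 without library B. On deposited TPM, Atp5g2 made up 51.4% of c-ring transcripts in WT1, 30.0% in WT2, 23.9% in library A and 26.2% in library B. Atp5g1 made up 18.3%, 30.8%, 34.9% and 35.3%, and Atp5g3 30.3%, 39.2%, 41.2% and 38.5%. The summed c-ring TPM was 1302, 1037, 803 and 1081, so the sum was highest in WT1, where Atp5g2 led. With counts divided by gene length, Atp5g1 held only 3.81% to 8.58% in the 4 libraries, since its deposited TPM exceeded its counts per kilobase by 5.54 times.

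Other members had levels that depended on the table. Ndufb2, an accessory subunit of complex I, had 42, 81, 90 and 65 counts, highest in library A, but 70.7, 78.4, 43.4 and 108 TPM, lowest in library A, and its TPM was 36.5 times what its counts per kilobase give. Exons of 30 of the 89 members overlap another gene in the annotation, and the labels do not say that the libraries kept strand, so reads from the overlapped bases cannot be told apart. For Ndufb2 the gene with the largest overlap covered 2.77% of the exon bases, and Atp5g1 had 0 overlapping genes. The part of overlap in the differences between counts and TPM was not tested. Ndufb2 was chosen after its values were seen.

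Promoter windows of 300 bases (250 before to 50 after the start, RefSeq, GRCm38.p6) were matched for 68 members, as 73 windows, and searched on both strands for letters of factors known to act on respiratory genes. GCGCATG, letters of the NRF1 motif, was in 17.8% of the members' windows against 4.80% of 21263 windows of all protein-coding genes. These letters were shortened after a longer form had been searched, and the shares of the longer form are not given. The members' windows also held more CG dinucleotides, a median of 19 against 13, and the part of this in the shares was not tested. The ETS motif CCGGAAG, read by GABPA, was in 23.3% against 11.6%. AAGATGGC, read by YY1, was in 13.7% against 3.05%; its first letters can overlap the end of the ETS motif. YY1 letters were found in 7 windows of complex I and 3 of complex V, and in 0 of 13 windows of complex IV. The 4 matched windows of tissue forms held none of the 3 motifs. These 4 windows and the 13 of complex IV are too few to read an absence against shares of 3.05% to 11.6% over all windows.

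Lists of related genes were read in the same fit. The 49 tested assembly factors, which build the complexes but are not part of them, had a median log2 fold change of -0.10 with 20 fitted higher, and 18 were lowest in library A. The 13 citric acid cycle genes had a median of -0.09 with 4 fitted higher, and the 17 genes of electron carriers and their synthesis -0.13 with 6 fitted higher. Library A held the lowest CPM of 8 citric acid cycle genes (61.5%), 8 electron carrier genes (47.1%) and 5 biogenesis regulators (31.25%), against 34.4% of all genes. The electron carrier list also held Ndufab1 (52.4, 41.1, 37.9 and 48.3 CPM), an Nduf name that the rule for the members did not take. The 16 tested regulators of mitochondrial biogenesis had a median of 0.08 with 10 fitted higher; the factors whose letters were searched were Nrf1 (68.6, 72.1, 84.6 and 84.5 CPM), Gabpa (55.5, 79.2, 104 and 68.6 CPM) and Yy1 (127, 180, 110 and 120 CPM). None of these lists held a gene with an edgeR adjusted p under 0.05, against 0% of all genes.

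Subunits encoded in the mitochondrial genome had a different order over the libraries. Of 12 tested genes, 9 were fitted higher in Tex11PM/Y, against 51% of all genes, with a median log2 fold change of 0.40 and a median standard error of 0.51. In CPM, 10 were highest in library A, against 35.0% of all genes. Their summed TPM was 33256 in WT1, 29142 in WT2, 47179 in library A and 35270 in library B. A large part of each sum was mt-Co1 alone (21198, 13529, 19775 and 16955 TPM). Unlike the sum, mt-Co1 was highest in WT1 (log2 fold change -0.18, SE 0.44). The ratio of mitochondrially encoded to nuclear-encoded TPM was 1.45, 1.32, 2.75 and 1.5, so library A stood apart and library B was close to both WT libraries. TPM is a share of each library, so the nuclear and mitochondrial sums are not independent. The nuclear genome also holds near-identical copies of mitochondrial DNA, which makes these counts uncertain, and poly-A selection acts on them unevenly.

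**Figure D5:**
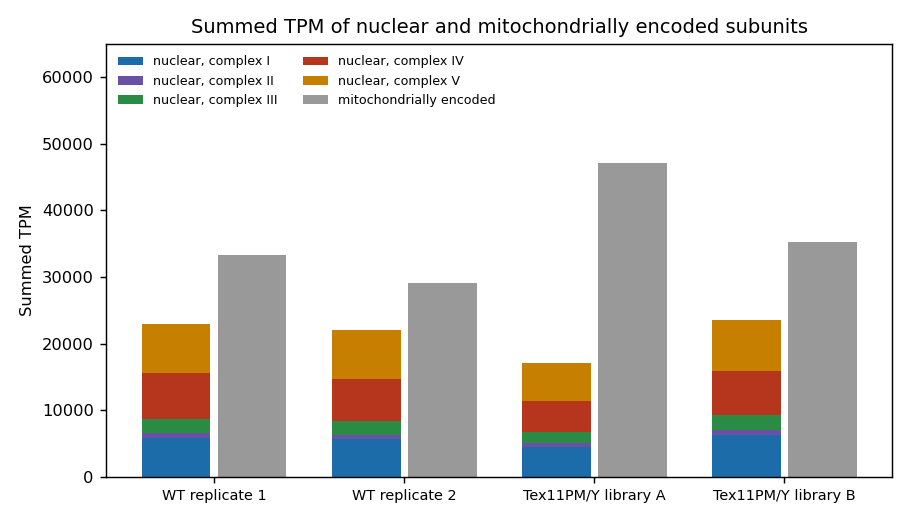
Summed TPM of the nuclear-encoded subunits (stacked by complex) and of the mitochondrially encoded subunits (grey) in each library. Library A has the lowest nuclear sum (17140) and the highest mitochondrial sum (47179). The other 3 libraries lie at 22003 to 23515 and at 29142 to 35270.

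Members were also compared by length. The 42 members at or under the median length of 927 bases had a median log2 fold change of -0.41 with 2 fitted higher, and the 42 longer ones -0.28 with 8 fitted higher. Across the 84 members, log2 fold change and log2 length had a Pearson r of 0.293 and a Spearman rho of 0.325, against 0.044 and 0.096 across all 17262 genes. These are descriptions across genes that share the same 4 libraries and are not independent. All genes as short as the shorter members had a median of -0.06.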

How the data were processed

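Poly-A RNA of the 4 libraries was deposited as 3 tables with 1 column per library. The authors' count table holds whole reads per gene, unnormalized per the file headers. The deposited FPKM table is scaled per kilobase and per library size, and the TPM table deposited by the authors is scaled to a total of 1000000 in each library. Per the submitters' processing notes, fastp, STAR, featureCounts, StringTie, DESeq2 and mm10 were used, with no roles or versions stated. The columns of all per-sample values were used.

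Genes were filtered with filterByExpr, scaled by TMM and tested with edgeR 4.0.16 (quasi-likelihood, Benjamini-Hochberg adjustment over 17262 genes, threshold 0.05) in R 4.3.3, with WT and Tex11PM/Y as groups and no covariate. The common biological coefficient of variation was 43.4%. Standard errors are the absolute log2 fold change divided by the square root of F. Alternatives were DESeq2 1.42.0, other scalings and filters, limma 3.58.1 on log2(value + 1) of FPKM and TPM and log2(FPKM + 0.1) for genes with a mean of at least 0.1, and leaving out each library. The script was tested on simulated counts with 200 changed genes. Recovery of the changed genes was required only at a variation between libraries far below that of these data. That test therefore does not show which changes these libraries could detect. Fold changes on the log2(value + pseudocount) scale understate those of low genes.

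Members were joined by gene ID. The filter left 84 of 89, and a gene high in only 1 group can pass it through that group, so counts over the tested members do not stand for all members. Named genes were both members of each tissue form pair, the highest, lowest, most raised and most lowered tested gene of each complex, the complex II and c-ring genes, and members under 10 counts. Others are marked as chosen after their values were seen. The members and lists were chosen with earlier results of these data known. The check of library A on other scales was added after seeing the data. Sequences were read from RefSeq promoter windows and GENCODE M21 transcripts with Biopython, and coding pairs were aligned globally. The NRF1 letters were shortened after a longer form had been searched. Libraries held 19047148 to 19804951 reads, and 2 libraries per group limit the precision.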

Additional observations from a re-analysis of the deposited data

How the results depend on the processing

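No paired analysis was possible because both Tex11PM/Y columns carry the same replicate number in the deposited tables, so numbers cannot be matched across groups. The number of members fitted higher, 10 of 84, was 16 with library-size scaling, 27 of 88 on log2(TPM + 1) and 4 to 34 when 1 library was left out. Genes called numbered 0, but 50 without a filter (0 of them members), 1 with DESeq2 and 0 to 518 with 1 library left out; members called numbered 0 to 1 there. The median of all genes was 0.15 on log2(TPM + 1) and 0.11 on log2(FPKM + 0.1), against 0.01. Leaving out 1 library gave medians of -0.72 to -0.058 over all members, -0.75 to -0.053 for complex I, -0.61 to 0.01 for complex II (positive without WT1), -0.60 to 0.028 for complex III (-0.021 on log2(TPM + 1)), -0.81 to -0.20 for complex IV and -0.69 to -0.023 for complex V.

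Among 28 named genes, leaving out 1 library turned the sign of Cox6a2 (-0.77 to 0.73), Cox6a1 (-0.76 to 0.31), Cox7a1 (-0.63 to 0.083), Cox7b2 (-0.26 to 0.11), Ndufa7 (-0.89 to 0.056), Sdha (-0.018 to 0.059), Atp5b (-0.46 to 0.082), Atp5g1 (-0.37 to 0.34), Sdhb (-0.63 to 0.035) and Sdhd (-0.72 to 0.0092). Other scales turned Cox7b2 to 0.0019 with library-size scaling, 0.018 on log2(FPKM + 1), 0.14 on log2(TPM + 1) and 0.019 on log2(FPKM + 0.1), and on log2(TPM + 1) they turned Cox6a1 to 0.017 and Atp5b to 0.058. The cause was not tested. DESeq2, its size factors and the filters turned no named gene. Fits without 1 library assume that the lone library varies as the other group does. With 2 libraries per group, differences of the size seen in most members could not be separated from the spread between libraries.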
